A study of Mus musculus with 19 samples.

Results

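Cholinergic cells of low scatter, sorted from the nasal epithelium of mice, were compared with the eGFP-negative epithelium around them. The comparison rests on 14 of the series' 19 libraries, 9 of the low-scatter gate (FSClow) and 5 of the eGFP-negative gate (EpCAM), and covers all 27179 genes of the count table. Every library came from mice of a congenic B6 strain with the transgene Tg(RP23-268L19-EGFP)2Mik, a bacterial artificial chromosome that places eGFP under the regulatory region of Chat, so the EpCAM controls carried it too. Noses were dissociated with dispase followed by papain, and cells that took up propidium iodide were discarded as dead. FSClow cells were sorted as CD45-negative, EpCAM-positive and eGFP-positive with low forward and side scatter, and EpCAM cells as CD45-negative and EpCAM-positive without eGFP. The labels name no age, sex, treatment or number of animals per library, and leave it unsaid if each library stands for its own animal or culture. The p-values therefore measure the spread between these libraries, which may be technical. The gate selected for activity of the Chat regulatory region, so the Chat difference checks the sort and is no finding.

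Brush cells, called tuft cells in the gut, are rare epithelial cells that sense chemicals with parts of the taste pathway. Ligands act on G protein-coupled receptors, gustducin and phospholipase C beta release calcium, and calcium opens the cation channel Trpm5. The cells answer with acetylcholine, cysteinyl leukotrienes and the cytokine Il25, which act on nerves and on type 2 lymphocytes. The epithelium left in the EpCAM gate can hold olfactory neurons, sustentacular, basal, ciliated, secretory and gland cells.

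The 5 marker genes of these cells were each far above the control level in every FSClow library. Levels are given in CPM, the count of a gene relative to its library's total after TMM scaling. Chat (chr14:32408203-32465909 in mm10, Entrez 12647), which makes acetylcholine, stood at 448 to 587 CPM with a median of 564 in FSClow and at 2.36, 3.09, 2.43, 2.65 and 0.151 CPM in EpCAM libraries 1 to 5. Pou2f3 (chr9:43123927-43205755, Entrez 18988), the transcription factor that tuft cells need to form, stood at 128 to 227 CPM with a median of 205 and at 2.36, 3.56, 1.68, 1.4 and 5.57 CPM. No FSClow library came near an EpCAM library for either gene. The fitted log2 difference, FSClow minus EpCAM, was 6.01 ± 0.35 (SE) for Pou2f3, with an adjusted p of 3.7e-12 in edgeR's quasi-likelihood test, the test behind each call below. Trpm5 (chr7:143071529-143094642, Entrez 56843) ranged from 967 to 2398 CPM with a median of 1686, against 2.16, 0, 0.187, 0.156 and 4.37 CPM. Alox5ap (chr5:149265004-149288153, Entrez 11690), which hands arachidonic acid to 5-lipoxygenase, ranged from 704 to 2003 CPM with a median of 1079, against 1.96, 0.713, 0, 2.18 and 0.904 CPM. Neither gene overlapped between the groups, but Il25 was far less even within FSClow. Il25 (chr14:54932695-54935837, Entrez 140806) ran from 155 CPM in library 7 to 4760 and 4931 CPM in libraries 1 and 2, with a median of 1509, and was 1.37, 0, 0, 0 and 0.452 CPM in EpCAM. Fitted differences of genes this close to 0 in EpCAM rest on 1 or 2 control libraries. The log2 difference of Trpm5 was 10.14 ± 0.75 and became 11.30 without EpCAM library 5, and that of Il25 was 12.47 ± 1.13 and became 13.68 without EpCAM library 1; both stayed called.

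**Figure D1:**
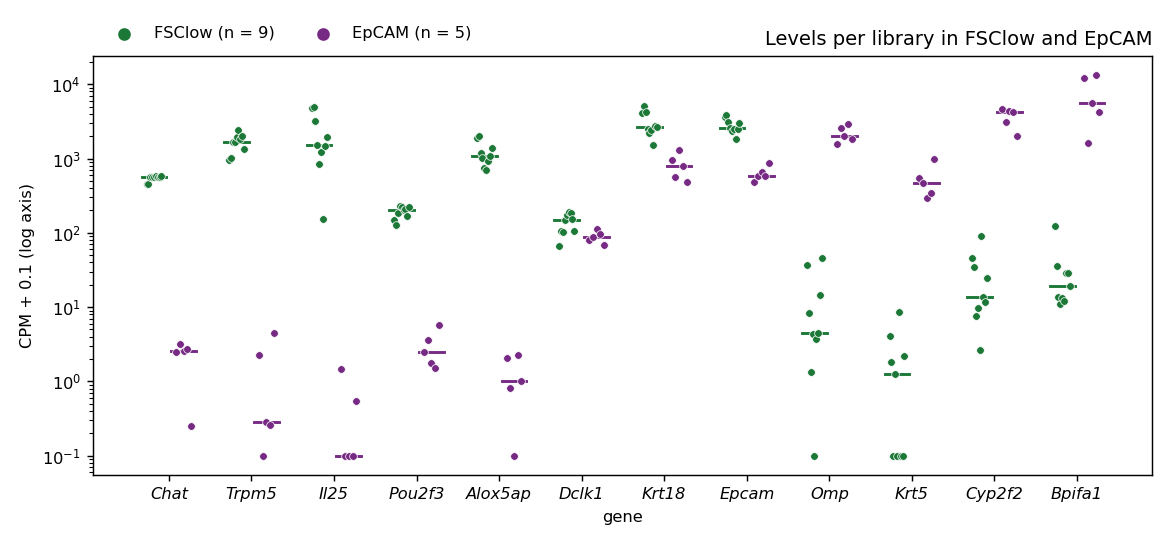
Level of 12 genes in each library, as CPM + 0.1 on a log axis. Green points are the 9 FSClow and purple points the 5 EpCAM libraries, and bars are medians. Chat, Trpm5, Il25, Pou2f3 and Alox5ap do not overlap between the groups, Dclk1 does, and Omp, Krt5, Cyp2f2 and Bpifa1 are lower in FSClow in every library.

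FSClow libraries held 2151281 to 5439263 counts and 14523 to 16065 genes with a count, EpCAM libraries 4137303 to 6487644 counts and 18053 to 18469 genes. Ribosomal RNA took 18.1 to 36.5% of counts in FSClow and 28.9 to 37.1% in EpCAM, and mitochondrially encoded RNA 3.04 to 5.68% and 2.4 to 5.34%. Both groups mixed libraries with and without counts of Y-linked genes, 4 and 5 in FSClow and 2 and 3 in EpCAM. The count columns of EpCAM libraries 1 and 2 matched each other's single-library file better than their own, with a correlation across genes of 0.961 to 0.963 against 0.925, so their numbers may be exchanged between the tables. FSClow library 7 stood apart in genes that respond within minutes to stimulation, as described further on.

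Of 13340 genes that passed the filter on low counts, 6017 (45.1%) differed at an adjusted p under 0.05. Higher in FSClow were 2931 genes (22.0%) and lower 3086 (23.1%). All FSClow libraries lay above all EpCAM libraries for 1428 of the genes tested (10.7%), and all lay below for 2076 (15.6%), called or not. Large falls outnumbered large rises, since 261 genes rose and 1046 fell by at least 16-fold, and 44 rose and 101 fell by at least 256-fold. The share of calls that were higher was 48.7%, but it depended on the scaling. It was 38.2% with relative log expression scaling, 34.7% in the deposited normalized values, 34.1% with DESeq2 and 33.5% without the filter. It was 38.5% over the libraries with Y-linked counts only and 37.8% over those without. The median log2 difference over all tested genes was 0.05. It was -0.14 with relative log expression scaling, -0.15 with DESeq2 and -0.22 in the deposited normalized values. A difference about as small as these shifts has no firm sign here. In such bulk samples fewer cells of a type and less RNA per cell cannot be told apart.

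**Figure D2:**
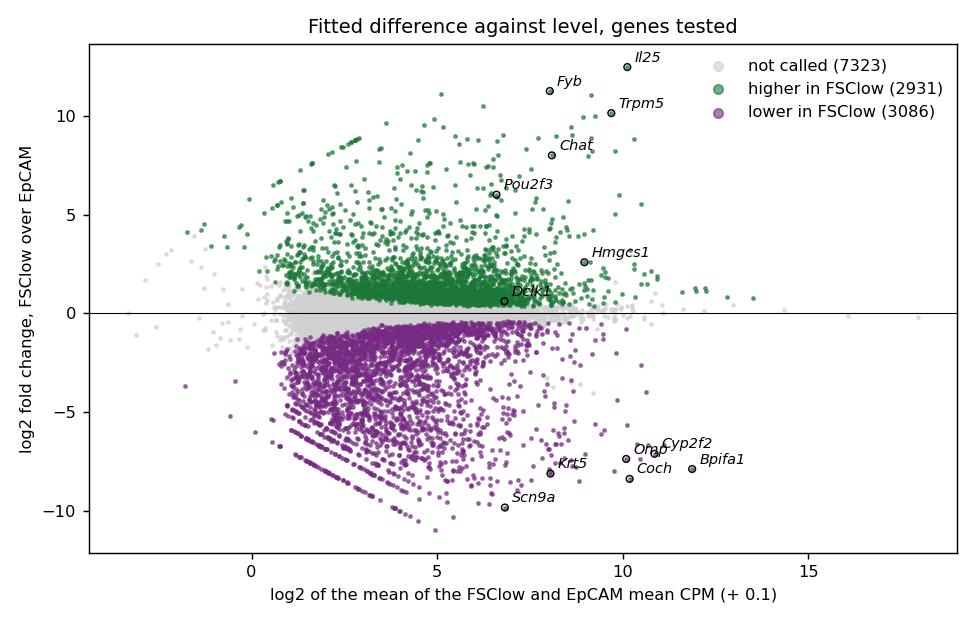
Fitted log2 fold change of FSClow over EpCAM (vertical axis) against the log2 mean level in CPM (horizontal axis) for the 13340 genes tested. Green points are called higher, purple points lower and grey points neither; Il25 and Fyb lie at the top, Scn9a and Coch at the bottom, and Dclk1 near 0.

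Across the tuft and brush cell identity list, 28 of 30 genes passed the filter and 27 of these were higher, against 22.0% of all genes tested, with a median log2 difference of 8.11. These genes were picked because tuft cells are known for them, so their direction is no independent evidence. Lrmp, which governs calcium release at the endoplasmic reticulum, was among the most abundant of them. It stood at 2207 to 3212 CPM in FSClow and 3.74 to 9.03 CPM in EpCAM. The member that was not called was Dclk1, a kinase widely used to mark tuft cells of the gut. Dclk1 stood at 65.4 to 192 CPM with a median of 148 in FSClow and at 79.3, 87, 112, 97.5 and 67.9 CPM in EpCAM. The groups overlapped, with a log2 difference of 0.62 ± 0.28 and an adjusted p of 0.078. Without FSClow library 1 the difference was 0.71 and Dclk1 was called, with an adjusted p of 0.032 in the same edgeR test.

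Transcription factors of tuft cells were mostly higher, 12 of the 15 that passed the filter against 22.0% of all genes, with a median log2 difference of 4.04. Hmx3, a homeobox factor, was at 82.9 to 213 CPM in FSClow and had 2 counts over all EpCAM libraries. Gfi1b, a repressor best known from blood, was at 43.0 to 88.7 CPM and had 1 count over all EpCAM libraries. Spib, an Ets factor of B cells and of M cells, was at 230 to 524 CPM, against 1.57, 0.475, 1.12, 1.25 and 0 CPM. These 3 genes were present in each FSClow library and held almost no counts in EpCAM. Sox9 and Etv1 had a low control level and a further rise, with log2 differences of 4.32 ± 0.30 and 4.44 ± 0.38. Ehf, an Ets factor of many epithelia, was at 354 to 877 CPM in FSClow and 65.2 to 189 CPM in EpCAM, a log2 difference of 2.03 ± 0.28. Jarid2, a partner of Polycomb complexes, went the other way and fell by 1.26 ± 0.21 on the log2 scale.

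Among the taste transduction genes some were higher and others lower. Gnat3, the alpha subunit of gustducin, was at 98.0 to 258 CPM in FSClow, and at 2.75, 0, 0, 0 and 5.87 CPM in EpCAM. Plcb2, the phospholipase C of taste cells, was at 139 to 243 CPM, against 0.982, 0.238, 0, 0 and 2.41 CPM. Rgs13, a regulator of G protein signalling, was at 783 to 1381 CPM, against 6.68, 0, 5.24, 7.63 and 1.51 CPM. None of the 3 overlapped between the groups. Their log2 differences were 6.56 ± 0.84 for Gnat3, 7.82 ± 0.58 for Plcb2 and 7.96 ± 0.61 for Rgs13; without EpCAM library 5 those of Gnat3 and Plcb2 were 7.93 and 9.15. In the whole list of 16 genes, 5 of the 15 tested were higher, Trpm5 and the G protein subunit Gnai2 being the others, and 4 were lower, shares not far from the 22.0% and 23.1% of all genes tested, with a median of -0.20. All FSClow libraries lay above all EpCAM libraries for 5 of the 15 and below for 4, against 10.7% and 15.6% of all genes tested. Gnb1, a common G protein beta subunit, was lower, with 138 to 227 CPM against 520 to 812 CPM. Itpr3, the inositol trisphosphate receptor used by taste cells, was also lower, at 6.14 to 19.1 CPM against 40.1, 35.6, 24, 35.2 and 19.3 CPM, a log2 difference of -1.68 ± 0.34.

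Only 9 of 35 taste receptor genes passed the filter, 5 of them higher and 1 lower, against 22.0% and 23.1% of all genes tested; 3 were higher when at least 10 counts in 9 libraries were asked for. The lower was Tas1r1, a subunit of the umami receptor, at 0 to 2.23 CPM against 2.16, 2.14, 3.56, 2.34 and 3.31 CPM; it was not called without EpCAM library 3 or 5. The most abundant was Tas2r108, a bitter receptor, at 38.2 to 154 CPM in FSClow and 1.96, 0, 0, 0.312 and 0 CPM in EpCAM, a log2 difference of 7.69 ± 0.73 that became 9.60 without EpCAM library 1. Tas2r138, another bitter receptor, was at 3.22 to 25.7 CPM and had no count in EpCAM, so it was at least 136-fold higher, if up to 3 counts over those 5 libraries are allowed for. Tas1r3, the shared subunit of the sweet and umami receptors, was at 9.42 to 29.5 CPM against 0.467 to 1.77 CPM. All FSClow libraries thus held counts of these 3 receptors. Among 25 receptors for metabolites and nucleotides, 10 passed the filter, 3 were higher and 6 lower, against 22.0% and 23.1% of all genes. Without FSClow library 9, 5 were higher, and without the filter 11 were lower. Adora1, an adenosine receptor, was at 26.3 to 61.6 CPM in FSClow and 0.589, 0, 0.187, 0.779 and 0.904 CPM in EpCAM, a log2 difference of 6.25 ± 0.42. Hcar2, a receptor for ketone bodies and niacin, had 12 counts over all FSClow libraries and 56.1 to 169 CPM in EpCAM.

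Genes for the making of lipid mediators split by step. Pla2g4a, which frees arachidonic acid from membranes, was at 178 to 615 CPM in FSClow and 11.6, 3.8, 5.8, 6.7 and 11.3 CPM in EpCAM, a log2 difference of 5.64 ± 0.49. Alox5, the 5-lipoxygenase, was at 748 to 1271 CPM and 0.561 to 3.9 CPM. Ltc4s, which joins the lipid to glutathione to give the first cysteinyl leukotriene, was at 98.6 to 205 CPM and 0 to 0.623 CPM. With Alox5ap these are the steps from membrane lipid to leukotriene C4, and none of the 4 genes overlapped with EpCAM. Abcc1, the transporter known to carry leukotriene C4 out of cells, was at 11.9 to 37.0 CPM against 147, 88.4, 107, 137 and 72.8 CPM, a log2 difference of -2.38 ± 0.31. In the whole leukotriene list, 4 of the 11 genes tested were higher and 6 lower, against 22.0% and 23.1% of all genes tested. All FSClow libraries lay above all EpCAM libraries for 4 of the 11 and below for 4, against 10.7% and 15.6% of all genes tested. The median log2 difference of the list was -0.71.

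The prostanoid genes divided likewise, 4 of the 12 tested being higher and 5 lower, against 22.0% and 23.1% of all genes tested. The number higher was 3 with DESeq2 and with relative log expression scaling, and 5 on the log2 TPM scale. Part of these genes are named here. Ptgs1, the constitutive cyclooxygenase, was at 1568 to 2383 CPM in FSClow and 46.9, 25.4, 19.1, 34.3 and 25.3 CPM in EpCAM, a log2 difference of 5.97 ± 0.29. Hpgds, which turns the cyclooxygenase product into prostaglandin D2, was at 94.2 to 130 CPM against 6.89 to 27.3 CPM, a log2 difference of 2.78 ± 0.27. Ptges, the inducible prostaglandin E synthase, was at 0.343 to 3.94 CPM against 117, 48.7, 76, 85.7 and 49.1 CPM, a log2 difference of -5.21 ± 0.44. Ptgds, the other prostaglandin D synthase, was lower, at 0 to 7.93 CPM against 4.91, 87.7, 121, 58.6 and 58.9 CPM, a log2 difference of -6.64 ± 0.99 that became -11.10 without FSClow library 1. Of the prostaglandin D and E synthases named, Hpgds was higher and Ptges and Ptgds were lower. Hpgd, which inactivates prostaglandins, was at 0 to 3.93 CPM in FSClow and 43.6 to 79.4 CPM in EpCAM.

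Of 16 genes of type 2 cytokine signalling, 10 passed the filter, 7 being higher and 3 lower, against 22.0% and 23.1% of all genes. The median log2 difference of the 10 was 1.61. Several receptor chains were higher together with Il25. Il13ra1, the binding chain of the type II receptor for Il4 and Il13, was at 416 to 1134 CPM in FSClow and 65.8, 25.9, 51.8, 63.1 and 23.5 CPM in EpCAM, a log2 difference of 3.94 ± 0.38. Il4ra, its partner chain, was at 123 to 274 CPM against 7.63 to 22.4 CPM, a log2 difference of 3.76 ± 0.31. Il17rb, a chain of the receptor for Il25 itself, was at 308 to 443 CPM against 0.561 to 3.09 CPM. The alarmin Il33 was at 1.68 to 7.51 CPM against 12, 19.7, 47.4, 56.7 and 29.5 CPM, a log2 difference of -2.90 ± 0.49. High Il25 and low Il33 marked every FSClow library, whereas EpCAM libraries showed the reverse.

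Of 8 genes for the synthesis, transport and breakdown of acetylcholine, 6 passed the filter, 3 being higher, Chat among them, and 2 lower. Over all genes tested, 22.0% were higher and 23.1% lower. Slc18a3, which loads acetylcholine into vesicles, was at 33.3 to 127 CPM in FSClow with a median of 63.5 and had no count in EpCAM, so it was at least 620-fold higher on the same allowance. Ache, which breaks acetylcholine down, had 6 counts over all FSClow libraries and was at 18.3, 8.32, 5.62, 20.9 and 8.59 CPM in EpCAM. The vesicle loading gene was thus counted in FSClow alone, and the breakdown gene mainly in EpCAM. The part of the Chat-based gate and of the transgene in the Slc18a3 level was not tested. Of 30 genes for regulated release, 27 passed the filter, 5 were higher and 19 lower, against 22.0% and 23.1% of all genes. The median log2 difference of the list was -2.71. The neuronal calcium sensor Syt1 was at 0 to 2.82 CPM against 50.5 to 70.7 CPM. Stxbp2 and Rab3b, which serve release in epithelial and blood cells, were higher, with log2 differences of 1.70 ± 0.17 and 1.93 ± 0.22. Voltage-gated channels were also mostly lower, with 6 higher and 12 lower of 22 tested, against 22.0% and 23.1% of all genes. Scn9a, the sodium channel of olfactory neurons, was at 0 to 0.683 CPM against 189 to 257 CPM. Cacna2d2, an auxiliary calcium channel subunit, and Kcnn4, a calcium-activated potassium channel, were higher. Cacna2d2 was at 12.9 to 26.2 CPM against 0 to 0.951 CPM, and Kcnn4 at 45.5 to 76.2 CPM against 4.52 to 17 CPM.

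Signalling genes best known from white blood cells were mostly higher. Of 36 such genes, 26 passed the filter, 20 were higher and 4 lower, against 22.0% and 23.1% of all genes tested, with a median log2 difference of 4.43. Fyb, an adaptor of T cells, was at 397 to 680 CPM in FSClow and 0.982, 0, 0, 0 and 0 CPM in EpCAM. Vav1, an exchange factor for Rac, was at 395 to 1282 CPM, against 2.36, 0.238, 0.561, 1.71 and 0 CPM. Both genes were high in every FSClow library, and EpCAM library 1 held the highest control level of each. Inpp5d and Ptpn6 encode phosphatases that restrain immune receptors. Inpp5d was at 152 to 274 CPM against 0 to 1.56 CPM, and Ptpn6 at 602 to 818 CPM against 24.5 to 35.4 CPM, a log2 difference of 4.38 ± 0.21. Lcp2, the usual adaptor partner of Fyb and Vav1 in T cells, was lower, with 10 counts over all FSClow libraries and 18.1, 25.7, 25.5, 19.3 and 9.64 CPM in EpCAM. Vav3 and Fyn were lower as well, with 8 counts each over all FSClow libraries, against 13.3 to 28.3 CPM for Vav3 and 5.24 to 8.32 CPM for Fyn.

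Markers of white blood cells themselves were mostly near 0 in both groups. Of 23 such genes, 4 passed the filter and 15 more had a count. Ptprc, which encodes CD45, was at 4.78 to 32.4 CPM with a median of 8.92 in FSClow and had no count in EpCAM. Cd79b, a chain of the B cell receptor, was at 31.6 to 81.2 CPM against 0 to 0.467 CPM. Kit, the stem cell factor receptor of mast cells and other cells, was at 120 to 161 CPM against 15.9 to 34.6 CPM. These 3 were higher, and Cd14, a coreceptor for lipopolysaccharide, was lower, with 9 counts over all FSClow libraries and 55.1 to 127 CPM in EpCAM. Of all genes tested, 22.0% were higher and 23.1% lower. The T cell genes Cd3e and Cd3g had no count in any of the 14 libraries. The summed level of the 23 genes was 168 to 243 CPM in FSClow and 84.8 to 146 CPM in EpCAM. The part of white blood cells in the rise of the signalling genes was not tested.

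Apical and structural genes differed in both directions. Avil, an actin-severing protein of microvilli, was at 496 to 1474 CPM in FSClow and 5.3, 4.99, 1.68, 4.99 and 2.26 CPM in EpCAM, a log2 difference of 8.22 ± 0.50. Espn, which bundles actin in microvilli, was at 84.6 to 220 CPM and 2.43 to 5.23 CPM, a log2 difference of 5.46 ± 0.30. Both genes separated the groups by a wide margin. In the microvillus list of 22 genes, 7 of the 17 tested were higher and 5 lower, against 22.0% and 23.1% of all genes, with a median of -0.03; 3 were lower without EpCAM library 1 and 2 in the libraries with Y-linked counts. Keratins were lower in 9 of 12 tested genes and higher in 2, against 23.1% and 22.0% of all genes. Krt8 and Krt18, the pair of simple epithelia, rose to 1030 to 4067 CPM and 1508 to 5071 CPM, from 355 to 933 CPM and 483 to 1320 CPM, with log2 differences of 2.00 ± 0.30 and 1.90 ± 0.29. Krt5, the keratin of basal cells, was at 0 to 8.47 CPM in FSClow and 555, 465, 293, 342 and 990 CPM in EpCAM. Krt5 had a log2 difference of -8.11 ± 0.98, and -9.02 without FSClow library 6.

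Of 30 junction genes tested, 11 were higher and 8 lower, not far from the 22.0% and 23.1% of all genes, with a median of 0.19. The number lower was 13 with DESeq2 and 4 on the log2 TPM scale. Epcam, on which both gates were set, was higher, at 1850 to 3881 CPM against 479, 573, 661, 584 and 876 CPM, a log2 difference of 2.15 ± 0.23. Cldn7, a claudin that binds Epcam, was at 358 to 1503 CPM against 130 to 198 CPM, a log2 difference of 2.59 ± 0.30. Dsg2, a desmosomal cadherin, was higher by 2.35 ± 0.30, and Dsc2, another, was lower, with a log2 difference of -2.65 ± 0.38. Cldn4 was lower too, at 22.9 to 111 CPM against 325, 94.6, 401, 178 and 158 CPM, so that its groups overlapped.

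**Figure D3:**
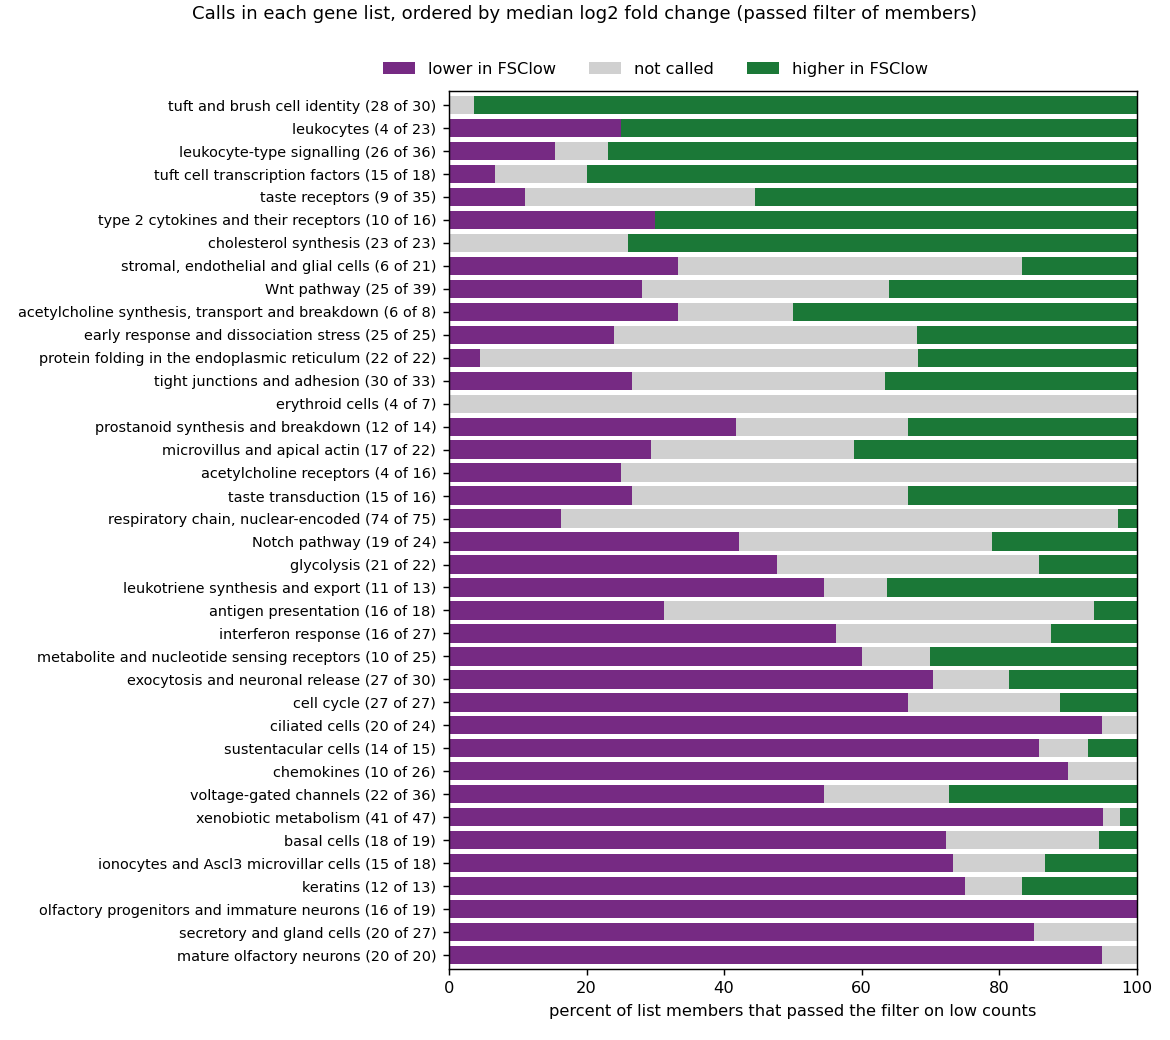
Percent of members called lower (purple), not called (grey) and higher (green) in FSClow for each of 38 gene lists, over the members that passed the filter on low counts; labels give the number that passed of all members. Lists are ordered by their median log2 fold change, with tuft and brush cell identity at the top and mature olfactory neurons at the bottom.

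Most of the cholesterol synthesis genes were higher in FSClow. All 23 genes passed the filter, 17 were higher and none lower, against 22.0% and 23.1% of all genes tested, and the median log2 difference was 1.49. Over the other scalings, filters, tests and left-out libraries, 15 to 17 were higher, and Mvk was called lower with DESeq2, with relative log expression scaling, in the normalized values and without FSClow library 2. Hmgcs1, the synthase at the start of the mevalonate route, was at 260 to 1577 CPM with a median of 799 in FSClow and 170, 93.2, 193, 196 and 59.5 CPM in EpCAM. Idi1, which interconverts the isoprene units, was at 105 to 552 CPM with a median of 309 against 46.9, 46.8, 68.7, 66.1 and 36.6 CPM. Msmo1, which removes methyl groups from the sterol ring, was at 215 to 904 CPM with a median of 382 against 60.5, 58.2, 54.1, 69.5 and 36 CPM. The lowest FSClow library was above the highest EpCAM library for each of them, although FSClow libraries differed among themselves several-fold. The log2 differences were 2.59 ± 0.47 for Hmgcs1 with an adjusted p of 8.9e-05, 2.54 ± 0.46 for Idi1 and 2.94 ± 0.34 for Msmo1. Genes that govern the pathway were also higher. The log2 difference was 1.54 ± 0.20 for Srebf2, its master transcription factor, and 1.68 ± 0.40 for Insig1, the sterol-sensing brake. The 6 members that were not called included Mvk at -0.45 ± 0.25 and Sqle at 0.64 ± 0.37, along with 4 enzymes that act late on the sterol ring.

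Cholesterol genes are known targets of Srebf2, which binds sterol elements and acts with the factor NF-Y on CCAAT boxes, so the 250 bases upstream of their starts were searched on both strands. RefSeq (GRCm38.p6) promoters were found for 17 of the 23 genes, 20 promoters in all. CCAAT, or ATTGG on the other strand, was present in 16 of the 20 (80.0%) and in 33.8% of all 32851 promoters of the same length. The tuft cell transcription factor list held it in 8 of 15 promoters (53.3%). In the tuft and brush cell identity list it was in 8 of 29 (27.6%). The sterol element TCACNCCAC was present in 1 of the 20, that of Hmgcs1, and in 1.05% of all promoters; it does not overlap with CCAAT there. A match describes these letters and is no evidence of binding, and a missing match says only that the letters are not in this window. The upstream bases of the 3 genes with the largest differences in the list are shown because they carry 2 or 3 CCAAT boxes each, in capitals; the capitals TCACCCCAC in Hmgcs1 are the sterol element. The windows are chr13:119690101-119690350 on the plus strand for Hmgcs1, chr13:8885356-8885605 on the plus strand for Idi1 and chr8:64733579-64733828 on the minus strand for Msmo1, each read 5′ to 3′ towards the start.
Hmgcs1: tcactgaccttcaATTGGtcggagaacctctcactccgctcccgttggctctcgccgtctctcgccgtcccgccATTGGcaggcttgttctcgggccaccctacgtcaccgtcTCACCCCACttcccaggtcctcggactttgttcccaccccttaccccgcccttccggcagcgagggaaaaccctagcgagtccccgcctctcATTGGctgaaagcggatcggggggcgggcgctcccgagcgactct
Idi1: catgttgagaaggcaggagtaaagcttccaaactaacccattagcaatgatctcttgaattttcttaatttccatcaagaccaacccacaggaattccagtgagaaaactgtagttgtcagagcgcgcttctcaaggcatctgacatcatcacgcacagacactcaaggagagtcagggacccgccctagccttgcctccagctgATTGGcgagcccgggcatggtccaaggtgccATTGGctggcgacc
Msmo1: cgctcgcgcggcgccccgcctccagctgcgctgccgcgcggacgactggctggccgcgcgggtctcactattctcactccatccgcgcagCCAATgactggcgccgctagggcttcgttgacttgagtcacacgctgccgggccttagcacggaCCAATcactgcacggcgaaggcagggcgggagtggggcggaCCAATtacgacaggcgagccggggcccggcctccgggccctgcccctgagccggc

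The octamer ATTTGCAT, the element that Pou factors such as Pou2f3 bind, was searched in the same way. It was present in 2 of 29 promoters of the tuft and brush cell identity list (6.9%) and in none of 15 of the tuft cell transcription factor list. The cholesterol synthesis list held it in 1 of 20 promoters (5.0%), that of Srebf2, and all promoters in 1.6%. The matches in the identity list were in Kctd12 and Ly6g6d. Ly6g6d, a surface protein of the Ly6 family, was at 20.6 to 108 CPM in FSClow and 0.393, 0, 1.5, 0.935 and 0.301 CPM in EpCAM. One of its 3 promoters, chr17:35081240-35081489 on the minus strand, held 2 octamers, shown in capitals.
Ly6g6d: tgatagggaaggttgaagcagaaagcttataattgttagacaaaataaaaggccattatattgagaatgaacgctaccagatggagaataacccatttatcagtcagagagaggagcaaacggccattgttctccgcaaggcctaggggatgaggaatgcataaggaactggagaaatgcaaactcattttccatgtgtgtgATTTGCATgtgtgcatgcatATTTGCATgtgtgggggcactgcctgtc

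Other metabolic groups moved less, or against this. Glycolysis genes were lower in 10 of 21 and higher in 3, against 23.1% and 22.0% of all genes tested, with a median of -0.51. Pkm and Ldha, the last steps before lactate, were at 160 to 283 CPM and 80.5 to 182 CPM in FSClow, against 852 to 1013 CPM and 386 to 464 CPM in EpCAM. Slc2a1, the basal glucose transporter, was higher, at 60.4 to 344 CPM against 28.8 to 52.4 CPM, and so was Aldoc, an aldolase, with a log2 difference of 1.88 ± 0.25. The glucose transporter and the enzymes near lactate thus went in opposite directions. Of 74 nuclear-encoded respiratory chain genes tested, 12 were lower and 2 higher, shares below the 23.1% and 22.0% of all genes tested. The number lower was 20 with relative log expression scaling, 22 without FSClow library 2 and 5 without EpCAM library 5. It was 1 in the libraries without Y-linked counts. Xenobiotic metabolism, the detoxifying enzymes for which olfactory and respiratory epithelium is known, fell almost throughout. Of 41 genes tested, 39 were lower and 1 higher, against 23.1% and 22.0% of all genes, with a median of -4.89. Cyp2f2, a cytochrome P450 of airway cells, was at 2.51 to 89.2 CPM in FSClow and 4638, 3101, 4425, 4283 and 1981 CPM in EpCAM, a log2 difference of -7.11 ± 0.70. Por, the reductase that all these P450 enzymes need, was at 75.7 to 190 CPM against 427 to 650 CPM, a log2 difference of -2.31 ± 0.25. The member that rose was Cyp2j6, at 55.1 to 100 CPM against 37.1 to 64.5 CPM, a log2 difference of 0.74 ± 0.23 that was not called in the normalized values or without EpCAM libraries 1 and 2 together.

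Markers of the other cell types of the nose were lower in FSClow, list by list. Over all genes tested, 23.1% were lower and 22.0% higher. Mature olfactory neuron genes were lower in 19 of 20, with a median of -8.05 and summed levels of 66.3 to 293 CPM against 4613 to 7883 CPM. Omp, their classical marker, was at 0 to 46.4 CPM with a median of 4.43 against 1550, 2552, 2031, 2910 and 1817 CPM. All 16 tested genes of olfactory progenitors and immature neurons were lower, with sums of 122 to 190 CPM against 1973 to 2685 CPM. Secretory and gland cell genes were lower in 17 of 20, with sums of 91.0 to 618 CPM against 10798 to 44008 CPM. Bpifa1, the abundant airway secretory protein, was at 10.9 to 124 CPM against 12282, 1629, 5653, 13466 and 4270 CPM. The secretory sums were the largest of the 11 cell type lists in EpCAM. Sustentacular cell genes were lower in 12 of 14, with sums of 281 to 846 CPM against 5085 to 9179 CPM. Basal cell genes were lower in 13 of 18, with sums of 252 to 379 CPM against 2673 to 6592 CPM. Sox2, a factor of both of these cell types, was higher instead, at 10.96 to 30.7 CPM against 12.8, 12.1, 8.42, 6.39 and 10.2 CPM, a log2 difference of 1.06 ± 0.29 with overlapping groups. Ciliated cell genes were lower in 19 of 20, with sums of 68.0 to 120 CPM against 335 to 530 CPM. Ionocyte and Ascl3 microvillar cell genes were lower in 11 of 15 and higher in 2. Coch, a matrix protein and among the largest falls, was at 0.496 to 18.6 CPM against 1497, 1771, 2780, 3799 and 1771 CPM. The exceptions were Hepacam2, at 672 to 1105 CPM against 35.1 to 79.6 CPM, and Dgki, a diacylglycerol kinase, with a log2 difference of 4.29 ± 0.31. The summed ionocyte level, both genes included, was 1029 to 1625 CPM in FSClow and 1975 to 4689 CPM in EpCAM. Erythroid genes had 5.64 to 228 CPM in FSClow and 4.21 to 338 CPM in EpCAM, with none of 4 called, but 3 were higher without EpCAM library 2.

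**Figure D4:**
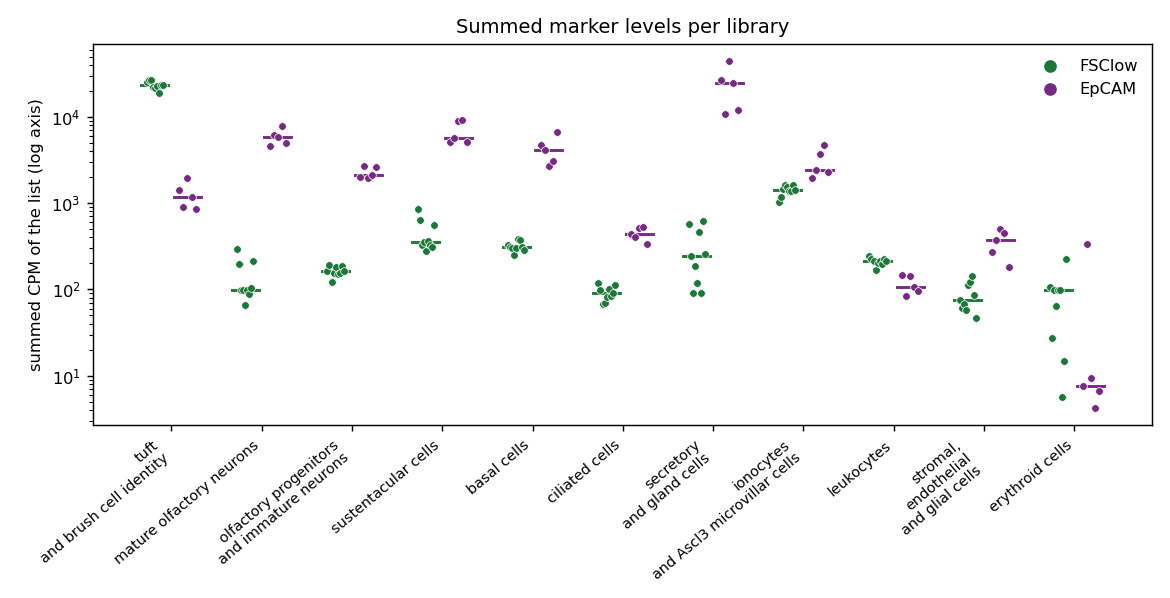
Summed CPM of each cell type marker list in each library, on a log axis; green points are FSClow, purple points EpCAM and bars medians. The tuft and brush cell sum is 19039 to 26581 CPM in FSClow and 855 to 1951 CPM in EpCAM, and the sums for olfactory, sustentacular, basal, ciliated and secretory cells lie the other way round without overlap.

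Cell cycle genes were lower in 18 of 27 and higher in 3, against 23.1% and 22.0% of all genes, with a median of -3.10. Mki67, present in dividing cells, was at 0 to 2.52 CPM in FSClow and 31.2, 33.7, 27.7, 25.4 and 38.7 CPM in EpCAM. The 3 that rose were Pcna, which also serves DNA repair, and the inhibitors Cdkn1a and Cdkn1b. Cdkn1b was at 77.6 to 129 CPM against 16.7, 15.7, 24.7, 14 and 32.4 CPM, a log2 difference of 2.20 ± 0.23. Cdkn1a was at 71.3 to 695 CPM against 114 to 166 CPM, with overlapping groups, and Pcna had a log2 difference of 1.02 ± 0.25. Chemokines were lower in 9 of 10 tested and higher in none, against 23.1% and 22.0% of all genes. Cxcl16 was at 0 to 20.6 CPM against 139, 44.7, 127, 53.6 and 51.4 CPM, a log2 difference of -3.89 ± 0.68. Of 16 interferon response genes tested, 9 were lower and 2 higher, against 23.1% and 22.0% of all genes. The larger rise was in Irf7, the master regulator of type I interferon, at 65.2 to 114 CPM against 3.56 to 7.3 CPM, a log2 difference of 3.88 ± 0.29. In the Notch list, 8 of 19 were lower and 4 higher, and in the Wnt list 7 of 25 were lower and 9 higher, against 23.1% and 22.0% of all genes tested. The number higher in the Wnt list was 4 with relative log expression scaling, and 4 or 5 without EpCAM library 1, 4 or 5 or FSClow library 4 or 7. Hes1, the main target of Notch signalling, was at 0 to 1.06 CPM against 61.3, 34.7, 26.6, 5.61 and 8.44 CPM, a log2 difference of -5.66 ± 0.65. Nkd1, a feedback inhibitor induced by Wnt signals, was at 67.2 to 316 CPM against 1.81 to 6.42 CPM, a log2 difference of 5.74 ± 0.47.

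Where FSClow libraries averaged 5 or more in log2 CPM, the gene that varied most over the 9 FSClow libraries was Xist, the RNA of the inactive X chromosome, with an SD of 4.71 on the log2 scale. Xist was at 485 to 701 CPM in the 5 libraries without Y-linked counts and at 0 to 2.51 CPM in the 4 with them. Early response genes, which cells switch on within minutes of stimulation or dissociation, were also among the 8 that varied most, with an SD of 2.55 for Nr4a1, 2.07 for Atf3 and 1.91 for Egr2. Of the 25 genes in the early response list, 8 were higher than in EpCAM and 6 lower, near the 22.0% and 23.1% of all genes tested, with a median of 0.37. Egr2 was at 14.9 CPM in FSClow library 7 and at up to 1226 CPM in the others, with a median of 747, against 37.9, 25.2, 63.4, 38.8 and 18.4 CPM in EpCAM. Without FSClow library 7 the 2 groups would not overlap for Egr2, whose log2 difference was 4.23 ± 0.63. Fos was at 962 to 12934 CPM with a median of 3847, against 2011 to 2622 CPM in EpCAM. The groups overlapped for Fos, and its rise, with an adjusted p of 0.042 in edgeR, was not called when any of 9 libraries was left out; these were all 5 EpCAM libraries and FSClow libraries 1, 2, 4 and 9, with adjusted p-values of 0.07 to 0.11. The summed level of the list ran from 4498 CPM in library 7 to 27696, 34971 and 37857 CPM in libraries 9, 2 and 1, and from 10254 to 15605 CPM in EpCAM. Hspb1 and Socs3, a heat shock protein and an inhibitor of cytokine signalling, were lower than in EpCAM. Hspb1 was at 3.62 to 44.5 CPM against 275 to 648 CPM, and Socs3 at 1.61 to 62.7 CPM against 109 to 374 CPM.

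Il25 followed this sum across the FSClow libraries. Over the 9 libraries, with sums and levels on the log2 scale, Pearson's r was 0.93 (exact permutation p = 0.0027, 0.013 after Benjamini-Hochberg adjustment over 10 genes) and Spearman's rho 0.85 (exact permutation p = 0.0061, adjusted 0.03), two-sided. Without libraries 7 and 1, the farthest from the median sum on that scale, r for Il25 was 0.72. Malat1, a nuclear RNA, followed the sum as well, with r = 0.80 and rho = 0.92 (both adjusted to 0.013, exact permutation test) and r = 0.84 without those libraries. Trpm5 ran the other way, from 967 and 1003 CPM in libraries 1 and 2 to 2398 CPM in library 6, with r = -0.66 (exact permutation p = 0.032, adjusted 0.089) and -0.79 without those libraries, and did not pass. For Alox5ap r was 0.67 (exact permutation p = 0.036, adjusted 0.089) and 0.77 without them. For Hmgcs1 r was -0.03 (exact permutation p = 0.96) but -0.79 without libraries 7 and 1, so its value over all 9 rests on those libraries. The relation was examined after these levels had been seen, the values of a library share its total, and the labels do not say that libraries are independent. Libraries with and without Y-linked counts are 4 and 5, too few for a correlation within each. FSClow libraries 1, 2 and 9 also held the largest sums of mature olfactory neuron genes, 293, 197 and 214 CPM, against 66.3 to 103 CPM in the others. Their sustentacular sums were 846, 643 and 560 CPM, against 281 to 368 CPM. TMM factors were lowest in libraries 1 and 2, 0.8195 and 0.8361, and highest in libraries 5 and 7, 1.276 and 1.159. A lower factor raises every CPM of its library. The parts of other cells, scaling and tissue handling in this pattern were not tested.

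**Figure D5:**
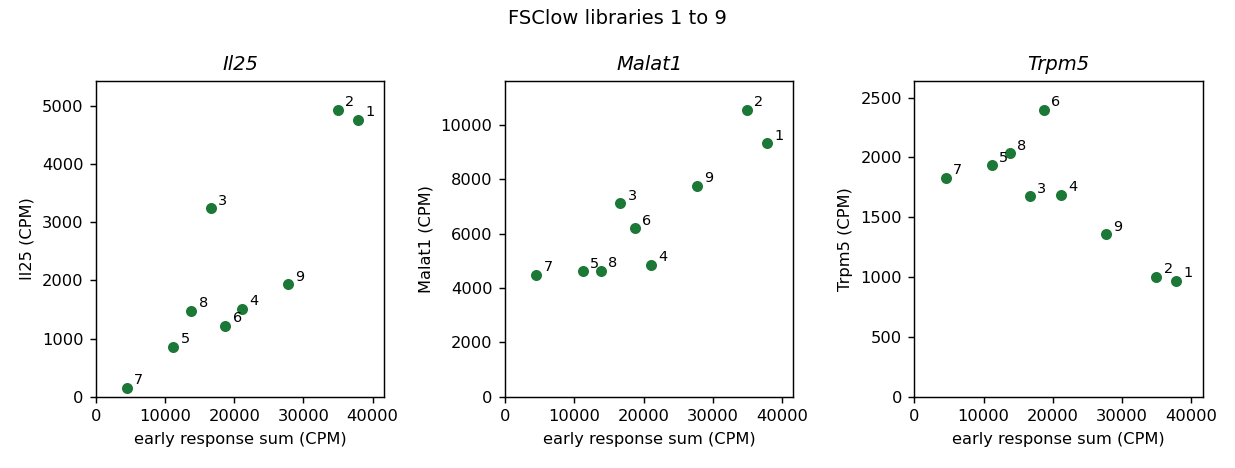
Level of Il25, Malat1 and Trpm5 in CPM (vertical axes) against the summed level of the 25 early response genes in CPM (horizontal axes); each point is an FSClow library with its number. Library 7 has the lowest sum and the lowest Il25, and libraries 1 and 2 have the highest sums, the highest Il25 and the lowest Trpm5.

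Scaled to gene length, several effector transcripts of FSClow ranked among its most abundant messages. In TPM, the deposited unit of transcripts scaled to gene length and library, as mean ± SD, Il25 reached 3758 ± 2206 (n = 9), Lrmp 3042 ± 612 and Alox5ap 2640 ± 465. These 3 levels compare with 4451 ± 988 for Krt18, 5641 ± 862 for the elongation factor Eef1a1 and 7410 ± 2400 for the actin Actb. All 3 were among the 20 most abundant genes of FSClow when mitochondrial and ribosomal protein genes are set aside. In EpCAM the mean TPM of Il25 was 0.644 ± 1.04 (n = 5), that of Lrmp 8.10 ± 3.49 and that of Alox5ap 3.32 ± 2.48. The spread of Il25 over the FSClow libraries was the widest of the 3, as it was in CPM.

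Like levels were also found. For 415 genes the log2 difference was within 0.25 of 0 and its 95% interval lay within 0.5. Other scalings moved the median over all genes by about as much, so these like levels are stated for TMM scaling. Eef1a1 was at 3651 to 5758 CPM in FSClow and 3865 to 4829 CPM in EpCAM, with a log2 difference of 0.13 ± 0.16.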

How the data were processed

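Gene expression was measured by bulk RNA sequencing of sorted mouse nasal epithelial cells. The submitters' processing notes name the mm10 build and the tools RSEM 1.2.21, STAR 2.4.2a, featureCounts, Picard and DESeq2; the roles of the tools, and whether counting used strand, are not given in the sources used here. The files deposited by the authors are 1 table of unscaled counts per Entrez gene, 1 normalized table, here treated as a signal in which counts were divided by a library's size factor (100.0% of values were whole within 0.01 when multiplied back), and single-library files with expected counts and TPM per the file headers. Symbols came from RefSeq for 25275 of 27179 identifiers and from equal counts for 580; the other 1324 held 0.982% of counts.

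Counts were fitted with edgeR 4.0.16 in R 4.3.3 (filterByExpr by group, TMM, robust quasi-likelihood F test, Benjamini-Hochberg adjustment over 13340 genes, adjusted p under 0.05). All 19 libraries, the 5 high-scatter libraries included, entered one fit with group as its only term. In simulated counts of 12970 tested genes, 70 were changed 2-fold, 63 were changed 4-fold and 62 were changed 8-fold. The fit recovered 21.4%, 88.9% and 96.8% of these, and 3.68% of calls were false. So few changed genes, against 45.1% of the real genes called, leave the dependence on scaling unchecked. Standard errors were derived from the F statistic. A fold against a group without counts used a floor of 3 counts over the group, which covers counting error only. The filter counts libraries of all groups, so a list member can pass through the group in which it is high.

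The comparison, the 38 gene lists (889 genes) and the rule for naming genes were chosen with earlier results of these data known, so no list is independent support. The rule took the 5 markers, the 14 largest rises and 14 largest falls whose mean log2 CPM reached 5, up to 5 members with the smallest p and up to 3 that went against the rest in each list, the 20 genes highest in TPM, the 8 most variable and 8 at like level; part of these are named, and genes beyond the rule were chosen after their values were seen. Some genes are not reported here. Alternatives covered scaling, filters, limma 3.58.1 on log2 values with pseudocounts of 0.1 or 1, DESeq2 1.42.0, rounded expected counts, a replicate block and leaving out each library. FSChi library 3 was left out of fits on the single-library files, as its file held 6807 counts.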

Additional observations from a re-analysis of the deposited data

Results flagged for a closer look

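Each of 80 sets of values was a named gene or a marker sum within 1 group. In 10 of them a library lay far from the others by Dixon's gap test. Chance gives this in about 1 of 20 sets of normally spread values. CPM near 0, as for Fyb and Chat in EpCAM, need not keep to that rate, so no excess is read from the 10. In EpCAM, Chat was at 0.151 CPM in library 5 and at 2.36 CPM in the next lowest. Library 1 held the highest EpCAM level of Fyb, at 0.982 CPM where no other library had a count. Ltf, an iron-binding gland protein, was at 9354 CPM in EpCAM library 3 and 4262 CPM in the next. The erythroid sum was 338 CPM in EpCAM library 2 and 9.36 CPM in the next.

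In FSClow, library 6 held the highest level of 3 secretory or detoxifying genes. These were Ltf at 233 CPM against 39.2 CPM in the next library, Cyp2f2 at 89.2 CPM against 45.6 CPM, and Reg3g, an antimicrobial lectin, at 70.2 CPM against 28.8 CPM. Bpifa1 was at 124 CPM in library 1 and 35.5 CPM in the next. Lrmp was at 3212 CPM in library 9 and 2696 CPM in the next, and the erythroid sum was 228 CPM in library 9 and 106 CPM in the next. Each of these secretory and detoxifying levels in FSClow was below the lowest EpCAM library for the same gene.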

How the results depend on the processing

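Leaving out each library in turn gave 2295 to 2959 genes higher and 2972 to 3421 lower, against 2931 and 3086. Genes higher numbered 1723 in the libraries with Y-linked counts and 1864 in those without, where fewer libraries were tested. Genes lower numbered 4801 with DESeq2 and 5152 without the filter on low counts; the cause was not tested. Replicate numbers are shared between the groups, but same-numbered libraries did not deviate together (correlations -0.214, 0.25, -0.062, 0.112 and -0.274). Every same-numbered pair set a library with Y-linked counts beside a library almost without them, so a shared number marks no shared animal. The fit with the replicate block, which used these numbers, called 2318 higher and 2861 lower. Of 3413 values, from 118 named genes and 29 alternatives, 3353 kept their direction and their side of the threshold, and 12 genes lost their call in at least 1 alternative: Fos in 21, Tas1r1 in 6, Cyp2j6 in 3, and Actb, Cd74, Cdkn1a, Insig1, Ltf, Malat1, Ptgds, Sox2 and Xbp1 each in 1, a split by Y-linked counts. Eef1a1, not called, turned sign with DESeq2 (-0.05), relative log expression scaling (-0.05), normalized values (-0.10) and the libraries without Y-linked counts (-0.01), and Sqle in the last of these (-0.03). Xist, not called, turned sign on the log2 TPM scale with a pseudocount of 0.1 (-0.30), in normalized values (-0.90) and in the libraries with Y-linked counts (-2.44). In 13 values a gene gained a call in its main direction, the genes being Atf3, Dclk1, Mvk, Nr4a1, Sqle and Xist. Nr4a1 and Atf3 were called without FSClow library 7 (1.67 and 1.12) and with the replicate block (1.90 and 1.32). Dclk1 was called without FSClow library 1 (0.71) and in the libraries with Y-linked counts (0.79). Of 2204 list counts under alternatives, 124 moved by over 1.5 times. The splits by Y-linked counts, a fit with that class as a term and the fit without EpCAM libraries 1 and 2 were chosen after seeing the data. Genes near 0 counts in a group have differences set by few reads.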

Other observations

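Of 21 markers of stromal, endothelial and glial cells, 6 passed the filter and 15 more had a count. Of the 6, 1 was higher and 2 lower, against 22.0% and 23.1% of all genes tested. Tek, the angiopoietin receptor, was the higher, at 4.46 to 75.0 CPM in FSClow, with 4 counts over all EpCAM libraries. Rgs5, a pericyte gene, was at 0 to 1.15 CPM in FSClow and 83.1, 156, 361, 261 and 21.8 CPM in EpCAM. The summed level of the 21 stromal, endothelial and glial genes was 46.1 to 142 CPM in FSClow and 184 to 499 CPM in EpCAM.

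Of 18 antigen presentation genes, 16 passed the filter, 5 were lower and 1 higher, against 23.1% and 22.0% of all genes tested; 3 were lower without EpCAM library 5, and 2 were higher without FSClow library 1 or 9. H2-D1, a class I heavy chain, was the higher, at 515 to 863 CPM against 246, 179, 247, 188 and 350 CPM, a log2 difference of 1.47 ± 0.21. Cd74, the class II chaperone, was at 0 to 2.12 CPM against 2.36, 9.03, 15.9, 17.1 and 7.38 CPM. In the list for folding in the endoplasmic reticulum, 7 of 22 genes were higher and 1 lower, against 22.0% and 23.1% of all genes tested. None of that list was higher in the libraries without Y-linked counts. Xbp1, the transcription factor of that response, was at 290 to 574 CPM against 127 to 284 CPM.

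Adgrg6, an adhesion G protein-coupled receptor, was at 1062 to 2424 CPM in FSClow and 7.46, 2.85, 12.2, 4.67 and 2.56 CPM in EpCAM, a log2 difference of 8.20 ± 0.49. Plk2, a stress-responsive kinase chosen after its values were seen, was at 1378 to 4482 CPM against 46.9 to 79.7 CPM, a log2 difference of 5.54 ± 0.38.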
